A study of Mus musculus with 75 samples.

Results

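The comparison set the lungs of aged mice against those of young mice, using 5 libraries of the 75 samples in the series. The aged group held the lung libraries of aged mice 1, 2 and 3, each 22 months old, and the young group those of young mice 1 and 3, each 3 months old. All were C57BL/6 mice, an inbred laboratory strain, labelled WT (wild type), with no treatment and no genetic change named in the labels. Lungs were taken after perfusion with PBS, frozen on dry ice and extracted as total RNA, so each library is whole lung and mixes airway, alveoli, vessels and blood cells. The lung library of young mouse 2 carried large amounts of liver transcripts and is given as a check only. The series as a whole covers 11 tissues of these aged and young mice, with choroid plexus from joined pairs of mice as a further experiment, and its title concerns type I interferon at the choroid plexus. Expression was read by RNA sequencing, and genes were kept as 1 row each, the transcript with the highest mean, which gave 20646 genes.

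Gas exchange takes place in alveoli, which are lined by thin alveolar type 1 cells and by alveolar type 2 cells, the makers of surfactant and the progenitors of type 1 cells. The airways leading to them are lined by club cells, which secrete protective proteins and metabolise inhaled chemicals, and by ciliated cells, whose beating cilia clear mucus. Elastin and fibrillar collagens give the wall its recoil and strength and are laid down chiefly while the lung grows. Macrophages, B cells, plasma cells and T cells reside in the tissue and enter it from blood.

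The 5 libraries held between 679424 and 1068713 reads, taken as the summed value divided by the value worth 1 read, which was 0.648 to 1.04 units. Values below about 10 units therefore rest on few reads, and counting error alone is large at that level. The labelled tissue fitted its markers: Sftpc, the surfactant protein C gene of type 2 cells, had 17219, 19306 and 14184 units in aged lungs and 19772 and 22086 units in young lungs, and Scgb1a1, the club cell secretoglobin gene, had 60310, 58769 and 51400 units in aged lungs and 61867 and 60829 units in young lungs. In the other tissues both stayed low except in the liver library of young mouse 1, where Sftpc reached 1225 and Scgb1a1 4178 units. Log2 values of the 5 libraries correlated at 0.863 to 0.918 across genes. The lung library of young mouse 2 correlated with them at 0.764 to 0.807, and its Alb, the gene of liver albumin, stood at 32238 units, against 10.7 to 23.96 units in the 3 aged and 12.1 and 22.9 units in the other young lungs. A list of 24 liver genes made up 14.6% of that library, against 0.0788% to 0.127% in the aged and 0.0784% and 0.0795% in the young libraries that were compared.

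The lung library of aged mouse 3 also stood apart. Its alveolar type 1 list summed to 2764 units, against 6150 and 6562 in the other aged lungs and 6647 and 7367 in the young lungs. Its fat cell list summed to 2620 units, against 544 and 619 in the other aged lungs and 557 and 770 in young lungs, with Adipoq, the adiponectin gene, at 169 units against 9.07 and 13.5 in the other aged lungs. Erythroid genes varied within both ages, at 10366, 6381 and 2666 units in aged lungs and 1695 and 8835 in young lungs. Mouse lung also contains heart-type muscle around the pulmonary veins, and a list of 19 heart muscle genes summed to 664, 527 and 640 units in aged lungs and 382 and 439 units in young lungs, with 14 of 15 tested above 0, 0 called and a median log2 difference of 0.52. The part of these cells in the results below was not tested, and results are given without aged library 3 where that changes them.

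**Figure D1:**
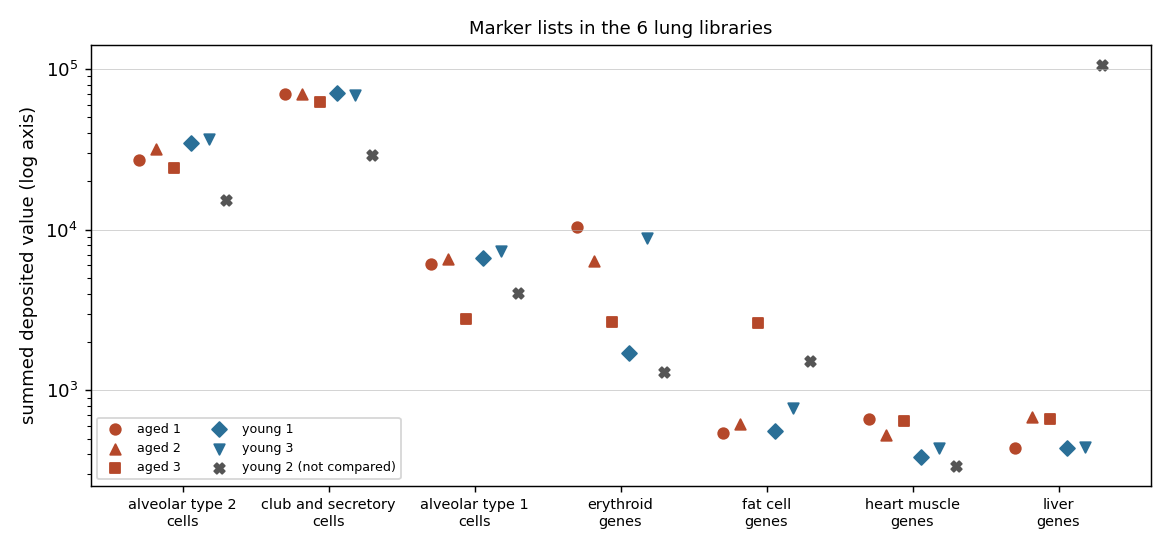
Summed deposited value (log axis) of 7 marker lists in each of the 6 lung libraries, with aged libraries left of young ones and the library of young mouse 2 last. Aged library 3 is lowest in alveolar type 1 genes (2764 units) and highest in fat cell genes (2620 units), and the library of young mouse 2 holds 106487 units of liver genes.

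Of 11553 genes tested, 38 passed at a Benjamini-Hochberg adjusted p under 0.05 in limma (0.329% of genes tested). Of these, 28 were higher in aged lung (0.242%) and 10 were lower (0.0866%). The unadjusted p was under 0.05 for 1418 genes (12.3%), 813 of them higher (7.04%) and 605 lower (5.24%). The median log2 difference over all genes was 0.02, with 51.6% of genes above 0. In 16.0% of genes all aged libraries lay above both young ones, and in 14.0% all lay below both. The last genes inside the threshold were Efr3a and Glb1l2, both at an adjusted p of 0.0485, and the first outside was Gucy1a1, a subunit of the nitric oxide receptor, at 0.0512. With 3 against 2 libraries, single libraries decided many calls: 36 of the 38 genes lost theirs when some library was left out, and Jchain and Cyp2a5 were the 2 that kept it without each library in turn. Without young library 1 only 4 genes were called, and without aged library 3 there were 93, of which 36 were among the 38.

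**Figure D2:**
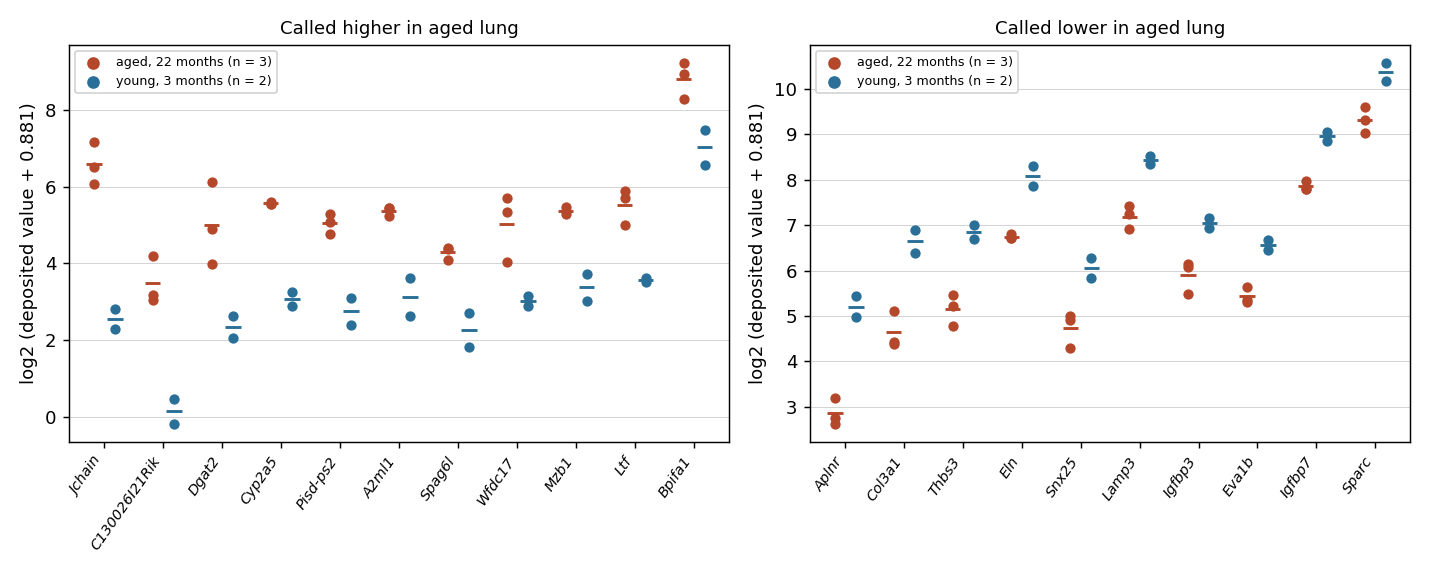
Log2 of the deposited value plus the pseudocount of 0.881 in each aged (left, n = 3) and young (right, n = 2) lung library for 11 of the called genes with the largest rises and the 10 called genes that fell; points are libraries and bars are means. For every gene drawn the libraries of the 2 ages do not overlap, which the choice of genes required.

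The gene with the largest log2 difference among those called was Jchain. Jchain (NM_152839), the joining chain that links IgA and IgM into polymers for transport across epithelia, had 66.7, 90.5 and 144 units in aged lungs, against 6.17 and 4.04 units in young lungs. The lowest aged lung was thus above the highest young lung by a wide margin. The library of young mouse 2 had 5.36 units. That is not a like measure, as lung transcripts are a smaller part of it. Scgb1a1 made up 3.05% of it, against 11.3% and 10.8% of the young lungs compared. Between the ages compared, Jchain differed by 4.03 ± 0.32 on the log2 scale (SE), with an adjusted p of 1.27e-06. This is a fold of 16.4 on the scale with the pseudocount added. Jchain missed the threshold without limma's mean-variance trend (adjusted p = 0.065) and in a fit of all tissues (0.0831). Mzb1, an endoplasmic reticulum cochaperone of antibody-secreting cells, had 43.4, 40.6 and 38.2 units in aged lungs and 12.3 and 7.27 units in young lungs, a rise of 2.00 ± 0.31 with an adjusted p of 0.0043. Mzb1 lost its call without young library 3, where the adjusted p was 0.0724.

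Of the 10 plasma cell genes tested, 9 lay above 0 and 2 were called, both higher, with a median log2 difference of 0.65 against 0.02 for all genes. Without aged library 3 the median was 0.42. Derl3, a component of the pathway that clears misfolded proteins, had 4.53, 5.20 and 9.76 units in aged lungs and 2.64 and 0.808 units in young lungs, without passing the test (adjusted p = 0.346). Irf4, a transcription factor of plasma cell development, had 12.3, 5.20 and 7.99 units in aged lungs and 2.64 and 4.04 units in young lungs (adjusted p = 0.399). Sdc1, which encodes the plasma cell marker CD138 but is also made by epithelium, went the other way, at 120, 114 and 112 units in aged lungs and 172 and 144 units in young lungs (adjusted p = 0.387). Pigr, the receptor that carries J chain-linked antibodies through the epithelium, had 87.4, 91.5 and 117 units in aged lungs and 39.7 and 54.9 units in young lungs, just outside the threshold (adjusted p = 0.0648). Immunoglobulin heavy and light chain genes were not analysed here. In whole tissue such as this, more cells of a type and more RNA per cell cannot be told apart.

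Genes of B cells lay above 0 in 20 of 25 tested, with a median of 0.54, and 1 was called. That gene was Cd24a, a surface glycoprotein of immature B cells that lung epithelium and granulocytes also make, at 152, 160 and 195 units in aged lungs and 80.2 and 82.0 units in young lungs (log2 difference 1.04 ± 0.21, adjusted p = 0.032). It lost the call without aged library 2, young library 1 or young library 3, at adjusted p of 0.0936, 0.408 and 0.165. Cd79a, part of the B cell receptor, overlapped between the ages, with 52.8, 38.0 and 63.0 units in aged lungs and 37.0 and 45.6 units in young lungs. Cxcl13, the chemokine that draws B cells into follicles, had 18.1, 2.08 and 29.3 units in aged lungs and 1.76 and 0 units in young lungs. Its young values amount to 2 reads in all and its adjusted p was 0.2, so the size of the difference is not set by these data.

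Genes of MHC class II, which presents peptides to helper T cells, lay above 0 in 10 of 11 tested, and none of them passed the test. Their shared control is known: class II promoters carry a conserved module that ends in a Y box, an inverted CCAAT element bound by NF-Y, and the module recruits the coactivator encoded by Ciita. The bases before the start of H2-Eb1 and H2-Aa, the beta chain of I-E and the alpha chain of I-A, are shown because most class II genes lay on the same side and both hold the Y box letters CTGATTGG, in capitals. They come from RefSeq on build GRCm38.p6, not the mm9 build of the deposited table, and each runs 200 bases up to the transcription start.
H2-Eb1 at chr17:34305667-34305866, plus strand: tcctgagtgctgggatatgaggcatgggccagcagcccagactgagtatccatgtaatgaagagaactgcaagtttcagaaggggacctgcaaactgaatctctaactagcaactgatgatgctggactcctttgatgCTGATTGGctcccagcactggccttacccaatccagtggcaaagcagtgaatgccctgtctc
H2-Aa at chr17:34287824-34288023, minus strand: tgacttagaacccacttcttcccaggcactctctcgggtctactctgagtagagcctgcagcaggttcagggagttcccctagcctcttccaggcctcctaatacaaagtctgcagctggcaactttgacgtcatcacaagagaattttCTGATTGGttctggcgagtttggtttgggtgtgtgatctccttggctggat
The match begins 62 bases before the start in H2-Eb1 and 51 in H2-Aa. Searched on both strands in the 250 bases before the start, CTGATTGG was present in 4 of 9 class II genes with a promoter in the table (44.4%) and in 4.43% of 27025 genes. Its inner letters GATTGG, which lie inside the longer motif, were present in 8 of 9 (88.9%) and in 16.6% of all genes. These 8 include H2-Ob, the tested member below 0 (log2 difference −1.27). H2-Eb2, counted for both motifs, was not among the genes tested for age. A link of these letters with the age differences was not tested.

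Of the 10 class II genes above 0, 9 had an unadjusted p under 0.05, and the median of all 11 was 0.84 with 0 called. Ciita, the coactivator itself, had 31.9, 37.4 and 27.5 units in aged lungs and 8.81 and 15.4 units in young lungs, a log2 difference of 1.39 ± 0.32 with an adjusted p of 0.069. Cd74, the invariant chain that guards the peptide groove, had 2024, 1968 and 1993 units in aged lungs and 1169 and 1337 units in young lungs (log2 difference 0.67 ± 0.16, adjusted p = 0.0701). For both genes every aged lung lay above both young lungs, and for Cd74 the 3 aged values were nearly equal. H2-Eb1 had 303, 323 and 567 units in aged lungs and 201 and 200 units in young lungs (adjusted p = 0.12). H2-Aa had 442, 425 and 593 units in aged lungs and 318 and 334 units in young lungs (adjusted p = 0.231). For these last 2 genes aged library 3 was the highest. The exception was H2-Ob, part of the inhibitor H2-O that B cells make, at 13.6, 2.08 and 6.21 units in aged lungs and 19.4 and 12.1 units in young lungs. Reads shared between the closely related H2 genes may have been split among them, so single H2 values are uncertain. Without aged library 3 there were 4 called members, all higher, with a median of 0.69, and without aged library 1 there were 2, with the same median of 0.69.

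**Figure D3:**
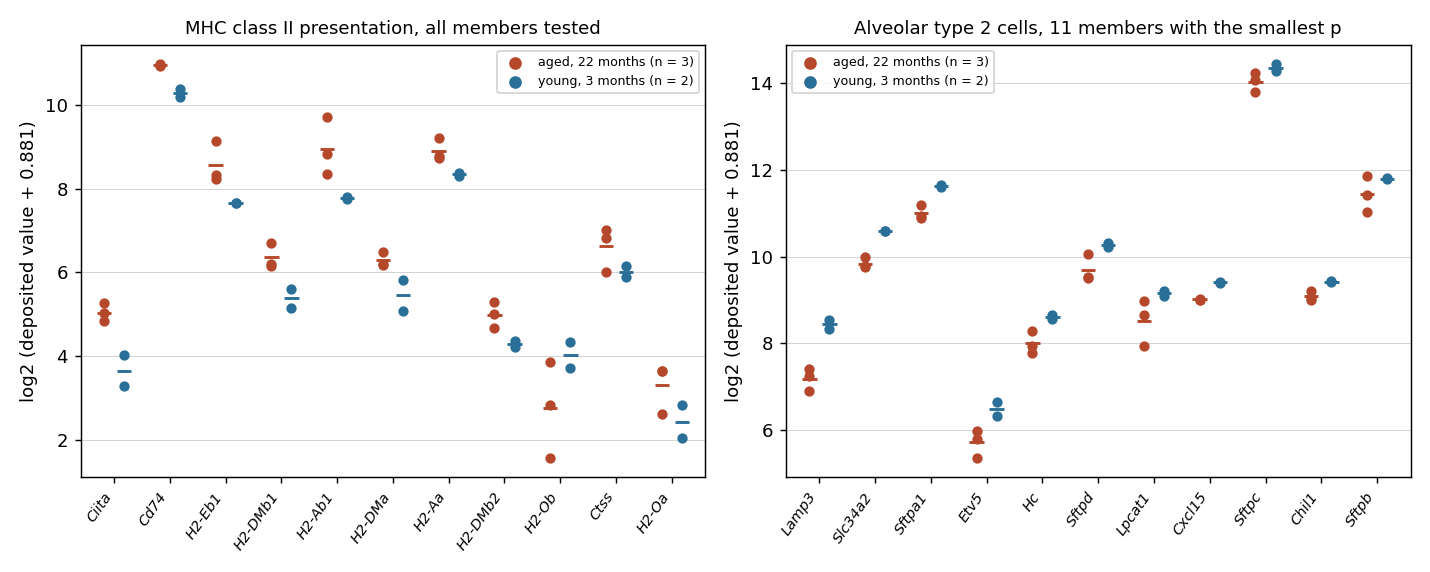
Log2 of the deposited value plus the pseudocount in each aged (left, n = 3) and young (right, n = 2) lung library for the 11 tested MHC class II genes and for the 11 type 2 cell genes with the smallest p; bars are means. All aged libraries lie above both young ones for 8 of the 11 class II genes, against 16.0% of all genes tested. H2-Ob is the class II member with its mean below.

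Among complement genes 2 of 22 tested were called, both higher. Cfb, complement factor B of the alternative pathway, had 27.2, 43.7 and 47.9 units in aged lungs and 14.1 and 8.08 units in young lungs (log2 difference 1.77 ± 0.34, adjusted p = 0.0258). C1qb, a chain of the C1q recognition protein made by macrophages, had 60.2, 62.4 and 126 units in aged lungs and 19.4 and 30.7 units in young lungs (1.64 ± 0.31, adjusted p = 0.0304). In both genes all aged lungs were above both young lungs. The other C1q chains did not pass, C1qa at 128, 103 and 173 units in aged lungs and 64.3 and 84.8 units in young lungs (adjusted p = 0.173), and C1qc at 39.5, 27.0 and 73.7 units in aged lungs and 26.4 and 15.4 units in young lungs (adjusted p = 0.241). Over the complement list, 15 of 22 lay above 0, 2 were called higher and the median was 0.24, or 0.10 without aged library 3. Liver makes Cfb in quantity: the library of young mouse 2 held 509.5 units of it, while the liver list summed to 435, 677 and 663 units in aged lungs and 435 and 441 units in young lungs. Of the 9 list members tested, 6 lay above 0 and 0 were called, and Alb differed by −0.10 ± 0.39 (adjusted p = 0.952). The part of liver transcripts in the Cfb difference was not tested. Leaving out young library 1 gave an adjusted p of 0.0776 for Cfb and 0.53 for C1qb, and without young library 3 it was 0.181 and 0.0639. Without aged library 2 Cfb stood at 0.103.

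Ltf, which encodes lactoferrin, an iron-binding protein of neutrophil granules and airway secretions, had 58.3, 31.2 and 51.5 units in aged lungs and 11.5 and 10.5 units in young lungs (1.97 ± 0.31, adjusted p = 0.0051). Slpi, a secreted inhibitor of neutrophil elastase, had 57.0, 67.6 and 71.9 units in aged lungs and 24.7 and 29.1 units in young lungs (1.26 ± 0.25, adjusted p = 0.0307). Both sets were apart, with the smallest aged value more than the largest young one. Wfdc17, a small secreted protein of myeloid cells in mouse, had 51.2, 15.6 and 39.9 units in aged lungs and 7.93 and 6.46 units in young lungs (2.02 ± 0.41, adjusted p = 0.048), and Lsp1, an actin-binding protein of leukocytes, had 190, 134 and 159 units in aged lungs and 77.6 units in each young lung (1.03 ± 0.22, adjusted p = 0.048). Leaving out young library 1 gave adjusted p of 0.0922 for Ltf, 0.416 for Slpi, 0.379 for Wfdc17 and 0.426 for Lsp1; without young library 3 it was 0.055, 0.107, 0.228 and 0.191. Slpi was also lost without aged library 2 (0.108), and Wfdc17 and Lsp1 without aged library 1 (0.079 and 0.0758).

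Neutrophil genes as a list lay above 0 in 15 of 18, with a median of 0.42 and Ltf as the called member. S100a9, one of the most abundant neutrophil transcripts, overlapped at 341, 149 and 136 units in aged lungs and 219 and 178 units in young lungs. Ngp, a granule protein of immature neutrophils, had 6.48, 17.7 and 13.3 units in aged lungs and 4.41 and 0.808 units in young lungs (adjusted p = 0.154). Without aged library 1 the list's median was 0.12. Monocyte and interstitial macrophage genes lay above 0 in 21 of 25, with 1 called (C1qb) and a median of 0.54. Cd68, a lysosomal protein of macrophages, had 50.5, 35.4 and 49.7 units in aged lungs and 17.6 and 23.4 units in young lungs (adjusted p = 0.117). Alveolar macrophage genes showed no such lean, with 6 of 19 above 0, 0 called and a median of −0.05; Marco, a scavenger receptor of these cells, had 14.3, 30.2 and 18.6 units in aged lungs and 21.2 and 19.4 units in young lungs.

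Of the matrix lists described here, Col3a1, Eln and Sparc were the members called lower, and Thbs3, which is in none of the lists, was called lower as well. Col3a1 (NM_009930), the chain of type III collagen that gives vessels and alveolar walls their pliancy, had 20.1, 20.8 and 33.7 units in aged lungs, against 118 and 83.2 units in young lungs. The highest aged value was below the lowest young one, and the fall was −2.00 ± 0.28 on the log2 scale with an adjusted p of 0.0032. Eln, the tropoelastin gene of the elastic fibre core, had 104, 104 and 111 units in aged lungs and 232 and 313 units in young lungs (−1.33 ± 0.21, adjusted p = 0.0043). Sparc, a collagen-binding secreted protein, had 637, 780 and 521 units in aged lungs and 1525 and 1157 units in young lungs (−1.06 ± 0.19, adjusted p = 0.0174). Thbs3, a thrombospondin of the matrix, had 43.4, 36.4 and 26.6 units in aged lungs and 128 and 103 units in young lungs (−1.69 ± 0.26, adjusted p = 0.0043). All 4 genes were apart in the same direction. Each missed the threshold without young library 1, at an adjusted p of 0.127 for Col3a1, 0.0687 for Eln, 0.598 for Sparc and 0.168 for Thbs3. Without young library 3, Eln (0.124) and Sparc (0.0683) also missed it.

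The calls in the matrix lists were few in number. Of all genes tested, 0.0866% were called lower. Matrix proteases and inhibitors were near even, with 10 of 21 above 0 and 11 below, 0 called and a median of −0.03. Fibrillar collagen and matrix genes lay below 0 in 16 of 26, with 2 called lower and a median of −0.20. Col1a1, a chain of type I collagen, had 76.4, 82.2 and 106 units in aged lungs and 166 and 133 units in young lungs (adjusted p = 0.177), while its partner Col1a2 had 123, 139 and 156 units in aged lungs and 165 and 170 units in young lungs (adjusted p = 0.623). Dcn, the small proteoglycan decorin that binds collagen, lay on the other side, at 122, 163 and 299 units in aged lungs and 69.6 and 107 units in young lungs (adjusted p = 0.227). Elastic fibre genes lay below 0 in 12 of 19, with Eln called and a median of −0.35. Loxl1, an enzyme that crosslinks elastin, had 40.8, 41.6 and 31.1 units in aged lungs and 93.4 and 71.9 units in young lungs (adjusted p = 0.0648), and Fbn1, the fibrillin of the microfibril scaffold, had 33.0, 32.2 and 24.9 units in aged lungs and 48.5 and 61.4 units in young lungs (adjusted p = 0.2). Mfap4, another microfibril protein, was on the other side, at 271, 410 and 360 units in aged lungs and 185 and 259 units in young lungs (adjusted p = 0.229).

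Basement membrane genes lay below 0 in 17 of 20, with 0 called, 6 at an unadjusted p under 0.05 and a median of −0.37. Col4a2, a chain of the type IV collagen network, had 146, 142 and 155 units in aged lungs and 264 and 271 units in young lungs (adjusted p = 0.0648), a gap many times the spread within either age. Hspg2, the heparan sulfate proteoglycan perlecan, had 81.6, 67.6 and 43.5 units in aged lungs and 106 and 113 units in young lungs (adjusted p = 0.209). Without aged library 3, 1 member of this list was called lower. The enzymes and chaperones of collagen synthesis lay below 0 in 15 of 19, with 1 called (Sparc, which this list shares with the collagen list) and a median of −0.38. Ppib, a proline isomerase of collagen folding, had 299, 183 and 195 units in aged lungs and 402 and 400 units in young lungs (adjusted p = 0.101), and Serpinh1, the collagen chaperone HSP47, had 167, 205 and 175 units in aged lungs and 304 and 241 units in young lungs (adjusted p = 0.242).

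Besides these and Lamp3, described with the alveolar genes, 5 genes were called lower. Aplnr, the apelin receptor of capillary and sprouting endothelium, had 5.83, 8.32 and 5.33 units in aged lungs and 42.3 and 30.7 units in young lungs (−2.35 ± 0.37, adjusted p = 0.0043), the largest fall among the called genes. Igfbp7, a secreted growth factor binding protein abundant in vessel walls, had 222, 250 and 222 units in aged lungs and 531 and 460 units in young lungs (−1.09 ± 0.19, adjusted p = 0.0097). Igfbp3, the main carrier of insulin-like growth factors, had 67.0, 44.2 and 70.1 units in aged lungs and 142 and 121 units in young lungs (−1.13 ± 0.24, adjusted p = 0.0485). Aged and young lungs were apart for all 3. Eva1b, a membrane protein, and Snx25, a sorting nexin of endosomes, fell as well, by 1.13 and 1.33, each with an adjusted p of 0.0485. None of the 5 was called without young library 1, at adjusted p of 0.226 for Aplnr, 0.379 for Igfbp7, 0.647 for Igfbp3, 0.632 for Eva1b and 0.67 for Snx25. Without young library 3, Aplnr remained called at 0.0333 and the other 4 were at 0.0829 to 0.146; without aged library 2, Igfbp3, Eva1b and Snx25 were at 0.149, 0.129 and 0.0811.

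Capillary endothelium as a whole showed no fall of the size of Aplnr. Of 29 genes, 12 lay above 0 and 17 below, with a median of −0.10. With Aplnr included, all aged libraries lay below both young ones for 8 genes and above both for 2. The unadjusted p was under 0.05 for 5 genes that were lower and 1 that was higher. After Aplnr the smallest p were those of Esam (−0.66 ± 0.20, adjusted p = 0.192) and Tbx2 (−0.68 ± 0.22, adjusted p = 0.213). Pecam1, the endothelial adhesion molecule CD31, had 222, 238 and 250 units in aged lungs and 212 and 242 units in young lungs, and Kdr, the main VEGF receptor, had 144, 166 and 110 units in aged lungs and 190 and 197 units in young lungs (adjusted p = 0.372). Igfbp3 and Igfbp7 were also the 2 called members of a list of 15 tested senescence and cell cycle inhibitor genes, both lower, while the list's median was 0.02. Cdkn2b, an inhibitor of cyclin D kinases, had 20.1, 21.8 and 10.7 units in aged lungs and 47.6 and 43.6 units in young lungs (−1.40 ± 0.33, adjusted p = 0.069). Cdkn1a, the p53 target p21, overlapped at 59.6, 178 and 147 units in aged lungs and 43.2 and 86.4 units in young lungs.

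Surfactant-making type 2 cells gave a uniform picture of small differences. All 21 genes of the list lay below 0 in aged lung, with a median of −0.39, and 9 had an unadjusted p under 0.05, but 1 was called. That gene was Lamp3, a membrane protein of the lamellar bodies that store surfactant, at 151, 119 and 169 units in aged lungs and 369 and 323 units in young lungs (−1.25 ± 0.21, adjusted p = 0.0075). It lost the call without young library 1 (0.284) or young library 3 (0.0718). Slc34a2, the phosphate transporter of these cells, had 864, 1012 and 876 units in aged lungs and 1531 and 1536 units in young lungs (−0.74 ± 0.16, adjusted p = 0.0599). Sftpa1, for surfactant protein A, had 1907, 2318 and 1956 units in aged lungs and 3233 and 3126 units in young lungs (adjusted p = 0.0987). For both, the aged and young values were apart by more than the range within either age. The hydrophobic surfactant proteins differed less: Sftpc by −0.32 ± 0.14 (adjusted p = 0.375), and Sftpb by −0.36 ± 0.19 (adjusted p = 0.477), with values of 2737, 3701 and 2093 units in aged lungs and 3524 and 3566 units in young lungs. The direction held for all 21 genes under each rescaling tried, and for 20 of 21 without aged library 1, young library 1 or young library 3. With the library of young mouse 2 added, 13 of 21 lay below 0.

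Alveolar type 1 genes lay below 0 in 15 of 17, with 0 called and a median of −0.56, but aged library 3 weighed heavily here: without it the median was −0.16, 13 of 17 lay below 0, 2 were called lower and 1 higher. Ager, the receptor that marks type 1 cells, had 2534, 2713 and 815 units in aged lungs and 2367 and 2928 units in young lungs, so that the other aged lungs lay within the young range. Hopx, a homeodomain protein of the same cells, had 547, 474 and 192 units in aged lungs and 584 and 535 units in young lungs. Emp2, a membrane protein, was the member with the smallest p, at 605, 560 and 322 units in aged lungs and 898 and 999 units in young lungs (−0.99 ± 0.23, adjusted p = 0.0784), and was below the young range in every aged library.

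The airway epithelium showed the opposite lean. Club and secretory genes lay above 0 in 18 of 21, with 2 called higher and a median of 0.50. Bpifa1, a secreted antibacterial protein of the upper airways, had 603, 491 and 312 units in aged lungs and 178 and 94.5 units in young lungs (1.79 ± 0.30, adjusted p = 0.0304); Ltf was the other called member. The call of Bpifa1 was lost without aged library 2 (0.11) or young library 3 (0.124). Scgb3a1, a secretoglobin of larger airways, had 742, 558 and 415 units in aged lungs and 390 and 334 units in young lungs (adjusted p = 0.242). The most abundant club cell genes differed little, Scgb1a1 by −0.11 ± 0.12 and Scgb3a2, a related secretoglobin, by 0.07 ± 0.17, so the summed list was 70429, 69651 and 62153 units in aged lungs and 70651 and 69013 units in young lungs. The list is thus even between the ages when weighted by abundance, and higher in aged lung when each gene counts once.

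Ciliated cell genes lay above 0 in 19 of 23, with 2 called higher and a median of 0.45. Many of these genes are known targets of RFX factors, which bind an X-box of inverted repeats, and of Foxj1, the master regulator of motile cilia. The bases before the start of Pifo and Tekt1 are shown because the list leaned one way and these members hold X-box letters, in capitals; they are again from RefSeq on GRCm38.p6, 200 bases up to the start.
Pifo at chr3:106001498-106001697, minus strand: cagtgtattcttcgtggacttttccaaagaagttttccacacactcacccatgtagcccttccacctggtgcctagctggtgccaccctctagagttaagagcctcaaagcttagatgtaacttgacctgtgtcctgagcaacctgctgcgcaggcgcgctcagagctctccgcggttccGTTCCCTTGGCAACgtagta
Tekt1 at chr11:72361883-72362082, minus strand: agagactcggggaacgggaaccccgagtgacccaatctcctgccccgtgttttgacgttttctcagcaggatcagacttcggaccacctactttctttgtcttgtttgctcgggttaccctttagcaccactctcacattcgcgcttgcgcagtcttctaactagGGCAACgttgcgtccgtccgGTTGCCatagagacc
In Pifo the capitals mark the full X-box palindrome, which begins 20 bases before the start; in Tekt1 they mark the short form GTTGCC on each strand. Searched on both strands in the 250 bases before the start, the short form was present in 10 of 22 ciliated genes (45.5%) and in 11.8% of 27025 genes, and the full palindrome in 1 of 22 (4.55%) and in 0.444%. The short form can overlap an end of the full motif, as it does in Pifo. The called members Tmem212 and Spag6l, and Foxj1, were not among the 10 genes with the short form. Hydin, at a log2 difference of −0.02, was among them, as were Deup1 and Mcidas, which were not tested for age. A link of these letters with the age differences was not tested.

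Tmem212, a membrane protein gene of multiciliated cells, had 60.2, 59.3 and 56.8 units in aged lungs and 19.4 and 23.4 units in young lungs (1.43 ± 0.25, adjusted p = 0.0143). Spag6l, a central apparatus protein of the cilium, had 16.2, 19.8 and 20.4 units in aged lungs and 2.64 and 5.66 units in young lungs (2.03 ± 0.40, adjusted p = 0.0307). In each the aged values were close together and well above the highest young value. Pifo, which acts when cilia disassemble, had 15.5, 22.9 and 17.8 units in aged lungs and 8.81 and 5.66 units in young lungs (adjusted p = 0.168), and Tekt1, a filament protein of the axoneme, had 20.1, 21.8 and 13.3 units in aged lungs and 9.70 and 7.27 units in young lungs (adjusted p = 0.246). Foxj1 overlapped, at 206, 175 and 119 units in aged lungs and 108 and 120 units in young lungs (adjusted p = 0.381). Ccdc17, a coiled-coil protein outside the list, rose by 1.42 ± 0.30 (adjusted p = 0.0485). Without young library 1 the adjusted p was 0.274 for Tmem212, 0.408 for Spag6l and 0.319 for Ccdc17. Without aged library 2, Spag6l was at 0.117 and Ccdc17 at 0.163, and without young library 3, Tmem212 was at 0.0633 and Ccdc17 at 0.18.

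Enzymes that handle foreign chemicals supplied the second most significant gene. Cyp2a5 (NM_007812), a cytochrome P450 of liver, lung and nasal tissue that hydroxylates coumarin and nicotine, had 47.7, 46.3 and 46.3 units in aged lungs, against 6.46 and 8.62 units in young lungs. The aged values were nearly equal, and the rise was 2.51 ± 0.30, a fold of 5.70, with an adjusted p of 0.00036. Cyp2a5 missed the threshold without the mean-variance trend (adjusted p = 0.0912), in a fit of all tissues (0.0831) and with the library of young mouse 2 added (0.756). Its close paralogue Cyp2a4, a steroid hydroxylase, had 10.5, 11.96 and 10.2 units in aged lungs and 0.734 and 2.56 units in young lungs (adjusted p = 0.0648); reads of these near-identical genes can be split between them, so their separate values are uncertain. The library of young mouse 2 held 117 units of Cyp2a5 beside its liver transcripts. In the libraries compared, the liver list summed to 435, 677 and 663 units in aged lungs and 435 and 441 units in young lungs, and 6 of its 9 tested members lay above 0, with 0 called and a median of 0.36. Alb overlapped between the ages, at 23.96, 14.6 and 10.7 units in aged lungs and 22.9 and 12.1 units in young lungs, while Apoa1, an apolipoprotein, had 7.99 to 12.5 units in aged lungs and 2.64 to 5.66 units in young lungs (adjusted p = 0.316). The part of liver transcripts in the Cyp2a5 difference was not tested. Cyp2s1, an extrahepatic P450 of airway epithelium, had 118, 123 and 132 units in aged lungs and 45.0 and 67.1 units in young lungs (1.16 ± 0.23, adjusted p = 0.0304), and lost the call without aged library 2 (0.0957), young library 1 (0.651) or young library 3 (0.0513). Of 43 xenobiotic and glutathione genes tested, 28 lay above 0, these 2 were called higher, and the median was 0.21. Gstm1, a glutathione transferase, had 462, 556 and 580 units in aged lungs and 249 and 342 units in young lungs (adjusted p = 0.0648).

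Several called genes belonged to none of these groups. A2ml1, a secreted protease inhibitor of the alpha-2-macroglobulin family, had 36.9, 42.6 and 42.6 units in aged lungs and 5.29 and 11.3 units in young lungs (2.26 ± 0.33, adjusted p = 0.0043). Sema3c, a secreted guidance factor, had 122, 119 and 107 units in aged lungs and 44.1 and 50.9 units in young lungs (1.27 ± 0.22, adjusted p = 0.011). Without young library 1 the adjusted p was 0.107 for A2ml1 and 0.274 for Sema3c; Sema3c also missed without young library 3 (0.0718).

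Sgk1, a kinase induced by glucocorticoids and salt, had 69.3, 88.4 and 66.6 units in aged lungs and 22.9 and 28.3 units in young lungs (1.51 ± 0.25, adjusted p = 0.0075). Klf4, a transcription factor of epithelium and endothelium, had 229, 324 and 185 units in aged lungs and 110 and 87.0 units in young lungs (1.29 ± 0.23, adjusted p = 0.0174). Dgat2, which completes triglyceride synthesis, had 14.9, 29.1 and 69.2 units in aged lungs and 5.29 and 3.23 units in young lungs (2.67 ± 0.50, adjusted p = 0.032). Its highest value was in aged library 3, where the fat cell list was also highest; without that library Dgat2 remained called (adjusted p = 0.0244). Without young library 1 the adjusted p was 0.226 for Sgk1, 0.127 for Klf4 and 0.326 for Dgat2, without young library 3 it was 0.18 for Klf4 and 0.256 for Dgat2, and without aged library 2 it was 0.0957 and 0.096 for these 2. Pisd-ps2, a transcribed pseudogene of a mitochondrial phospholipid enzyme with near-identical copies, had 26.6, 38.0 and 32.8 units in aged lungs and 4.41 and 7.68 units in young lungs (2.29 ± 0.35, adjusted p = 0.0043; 0.107 without young library 1). C130026I21Rik, a gene of a repeated family, had 17.5, 8.15 and 7.40 units in aged lungs and 0 and 0.505 units in young lungs (adjusted p = 0.0304); the young values come to less than 1 read, and calls were lost without aged library 1, aged library 2 or young library 1 (0.14, 0.105 and 0.127). Further called genes were Basp1, Pcp4l1, Cdk19, Efr3a and Glb1l2, all higher, with log2 differences between 1.06 and 1.78 and adjusted p between 0.0304 and 0.0485. Each of these 5 was lost without aged library 2, young library 1 or young library 3, at adjusted p of 0.11 to 0.158, 0.0922 to 0.4 and 0.142 to 0.317. Cdk19 was also lost without aged library 1 (0.0675), and Efr3a and Glb1l2 without aged library 3 (0.067 and 0.104), the library with the high fat cell sum.

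Interferon-stimulated genes, the subject of the study at the choroid plexus, lay mostly above 0 in lung without calls. The list of type I interferon response genes had 34 tested members, of which 27 were above 0, 8 had an unadjusted p under 0.05 in that direction and 1 in the other, and 0 were called, with a median of 0.37. Oas2, a sensor of double-stranded RNA, had 16.8, 23.9 and 13.3 units in aged lungs and 6.17 and 3.23 units in young lungs (1.77 ± 0.41, adjusted p = 0.069). Ifi27l2a, a mitochondrial interferon-induced protein, had 194, 116 and 341 units in aged lungs and 90.8 and 84.8 units in young lungs (adjusted p = 0.228). Isg15, a ubiquitin-like protein and a standard readout of the response, overlapped at 23.96, 27.0 and 12.4 units in aged lungs and 22.9 and 15.4 units in young lungs, as did Irf7, the amplifying transcription factor, at 35.0, 29.1 and 17.8 units in aged lungs and 18.5 and 22.6 units in young lungs. Interferon gamma response genes were even, with 11 of 24 above 0, 0 called and a median of −0.03. MHC class I genes lay above 0 in 18 of 23 with 0 called and a median of 0.19, among them B2m, the shared light chain, at 637, 660 and 810 units in aged lungs and 479 and 474 units in young lungs (adjusted p = 0.216).

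T cell genes lay above 0 in 18 of 27 and below 0 in 9, with 0 called and a median of 0.27. The member with the smallest p, Dpp4, was lower in aged lung (−1.18 ± 0.28, adjusted p = 0.0763). Cd3e, part of the T cell receptor complex, had 16.8, 21.8 and 31.1 units in aged lungs and 13.2 and 10.5 units in young lungs (adjusted p = 0.299). Gzma, a granzyme of cytotoxic and NK cells, had 42.8, 18.7 and 40.8 units in aged lungs and 51.1 and 119 units in young lungs (adjusted p = 0.237). Cytotoxic and NK cell genes as a list were near even, with 7 of 13 above 0 and 6 below, 0 called and a median of 0.11. Clock genes lay above 0 in 14 of 19, with 0 called and a median of 0.46. Dbp, an output gene of the clock, had 33.7, 16.6 and 47.0 units in aged lungs and 2.64 and 11.3 units in young lungs (2.23 ± 0.52, adjusted p = 0.117), and Arntl, which encodes the core activator BMAL1 and peaks at the opposite time of day, had 5.18, 7.28 and 0.888 units in aged lungs and 14.1 and 10.5 units in young lungs (adjusted p = 0.282). The hour at which each mouse was killed is not given in the sources used here, so it and age cannot be told apart.

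**Figure D4:**
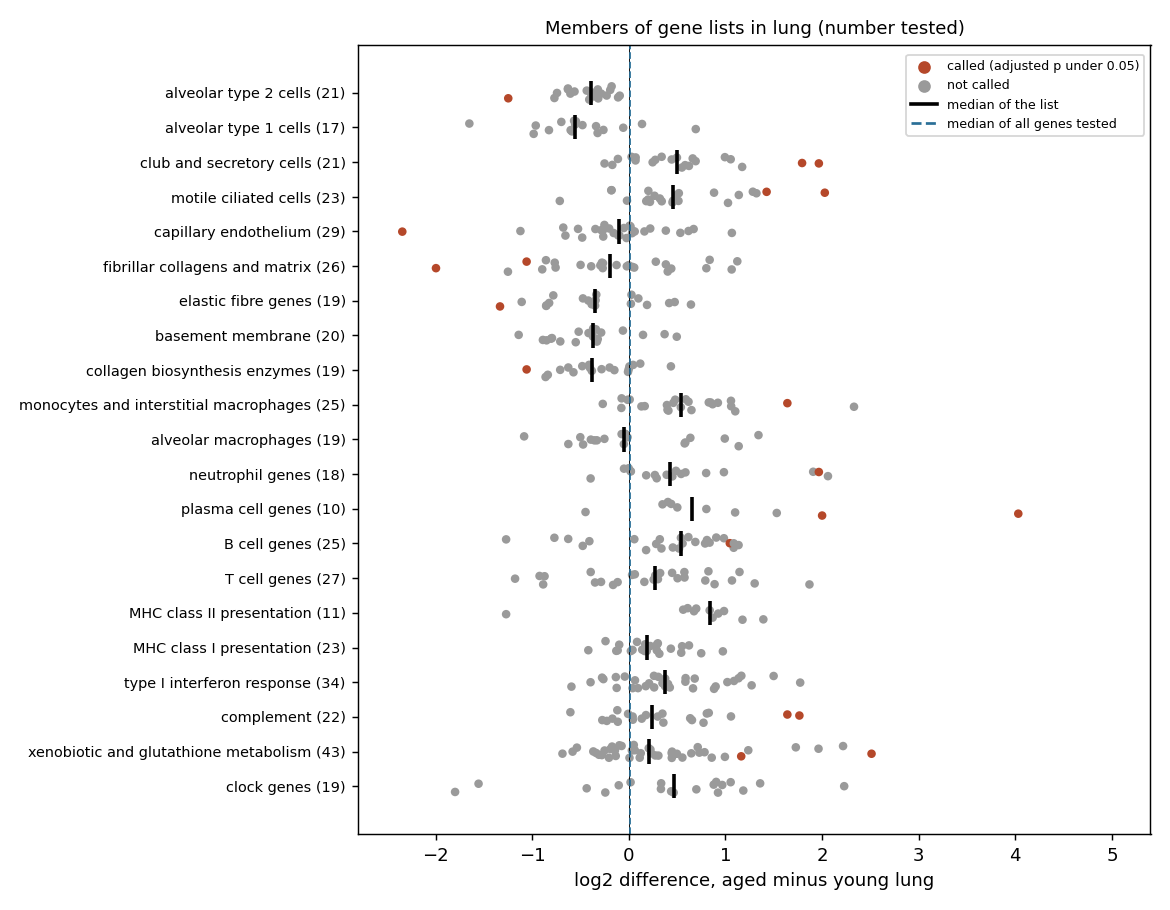
Log2 difference, aged minus young lung, of every tested member of 21 gene lists (number tested in brackets); red points passed at an adjusted p under 0.05, black bars are list medians and the dashed line is the median of all genes, 0.02. All 21 type 2 cell genes lie left of 0, while 10 of 11 MHC class II genes and 18 of 21 club cell genes lie right of it.

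Whether these differences were larger in lung than elsewhere was tested as the lung age difference minus the mean age difference of the other 10 tissues, with mouse as a term and young mouse 2 left out throughout, over 52 libraries. In limma 0 of 11553 genes passed (0%), and 473 had an unadjusted p under 0.05 (4.09%). The 5 genes with the smallest p on the higher side were Cyp2a4, Spag6l, Srek1ip1, Efcab10 and A2ml1, with excesses in lung of 2.05 to 2.53 on the log2 scale and an adjusted p of 0.251 each. On the lower side they were Polr2g, Foxs1, Timm44, Ctsh and Heyl, at −0.86 to −2.63 with adjusted p of 0.606 to 0.679. Ctsh, a cathepsin that processes surfactant proteins, had 242, 208 and 225 units in aged lungs and 354 and 343 units in young lungs. The liver library of young mouse 1, which carries lung transcripts, is in this contrast; without liver the count was again 0, with 523 genes at an unadjusted p under 0.05.

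Side by side, some lung differences had counterparts in the other tissues of the same mice. With young mouse 2 left out, these tissues had 3 aged and 2 young libraries, except that bone marrow and cervical lymph nodes had 1 young library each and liver had 2 aged ones, so some directions rest on 1 young library. Jchain was higher with age in 9 of the other 10 tissues, by 0.82 to 2.77 on the log2 scale, and lower in colon, by −0.65. Some of these directions rest on few reads. Jchain had 0 units in young liver and 2.84 and 8.83 units in aged liver. It reached at most 6.11 units in choroid plexus and 6.17 units in hippocampus. The lung difference of Jchain, 4.03, exceeded the mean of the others by 2.57 ± 0.91, with an adjusted p near 1. Ltf, Slpi, C1qb, Wfdc17 and C130026I21Rik were higher with age in all 10 of the other tissues. Cyp2a5 was higher in 7 of 10, at most by 1.24, in liver, and its excess in lung was 2.19 ± 0.56 (adjusted p = 0.333). Spag6l was higher in 2 of 10 and A2ml1 in 3 of 10. Of the genes that fell, Eln was lower in 8 of 10, by −0.74 at most outside lung, and higher in thymus by 1.02, and Col3a1 was lower in 7 of 10. Counts of tissues for single genes used no filter on level. Eln was at most 1.82 units in bone marrow. Col3a1 was at most 1.55 units in hippocampus, 4.54 in bone marrow and 6.99 in choroid plexus. In liver, Eln had 1.37 and 23.8 units in young and 2.94 and 6.63 units in aged libraries. Col3a1 in liver had 11.0 and 23.8 units in young and 8.525 and 20.6 units in aged libraries. The young liver libraries include that of mouse 1, which carries lung transcripts, so the liver directions of both genes are uncertain. List medians by tissue cover only the members above 5 times the pseudocount in at least 2 libraries of that tissue, so the genes differ between tissues. The MHC class II median was 0.84 in lung (11 members), 1.37 in liver (9), 1.12 in choroid plexus (7) and −0.68 in inguinal lymph nodes (11). The type I interferon median was 0.37 in lung (34 members) and 1.37 in choroid plexus (24), and differences of these medians between tissues were not tested.

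**Figure D5:**
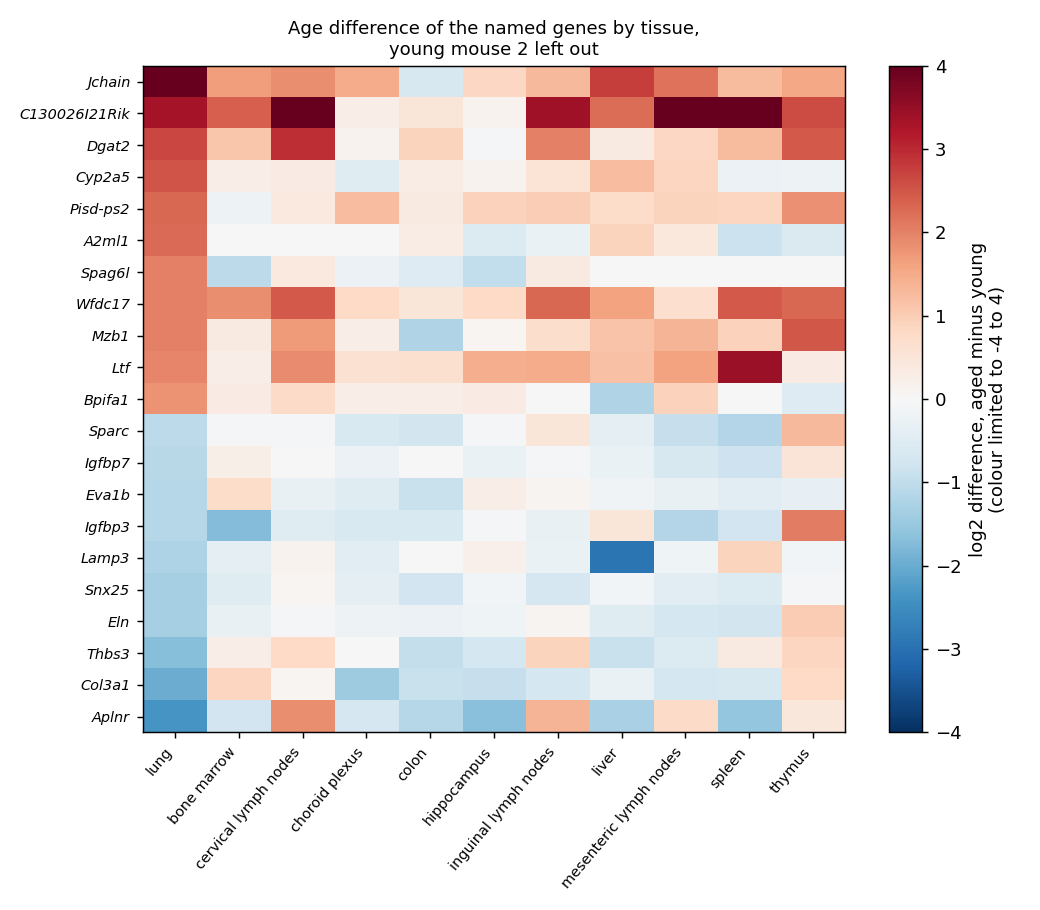
Log2 difference, aged minus young, of 21 of the most changed called lung genes (rows) in lung and in the other 10 tissues (columns), with young mouse 2 left out (1 young library in bone marrow and in cervical lymph nodes) and the colour limited to −4 to 4. The lung column was used to choose the rows; Wfdc17 and Ltf are higher with age in every tissue, and Spag6l and A2ml1 are higher in 2 and 3 of the other tissues.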

How the data were processed

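The deposited values are a signal per RefSeq transcript: per the submitters' processing notes, reads were aligned with TopHat to mm9. Which counting tool and scaling were used, and whether strand was, no source used here states, so overlapping and antisense genes, and near-identical copies such as the Cyp2a, H2 and haemoglobin genes, are uncertain. In each column low values are multiples of 1 value, taken as the value worth 1 read. Since 80.8% to 83.2% of the values in the 5 lung libraries were whole multiples of it (tolerance 0.001 of a read), whole reads were not recovered and no count test was run. A column with no listed sample (1) was not used.

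From there, log2(value + 0.881) was fitted over 11553 genes by limma 3.58.1 (R 4.3.3), using robust moderated variances that follow the mean level, two-sided tests and Benjamini-Hochberg adjustment, the pseudocount being the median value worth 1 read. A gene was tested where at least 2 libraries exceeded 5 times the pseudocount. Fold changes are on this scale and understate low genes. Replicates are separate mice, per the labels. Tables and figures used Python 3.11.15, pandas 2.3.3 and matplotlib 3.10.9, and the fits were tested on simulated data.

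Named genes are the 12 called genes in each direction with the largest difference, where the ages do not overlap and the higher mean reaches 10 pseudocounts (10 fell), up to 4 members with the smallest p of each list described, and the markers. Further members, among them those that went against their list, were named after their values were seen, as were the remaining called genes. The members and lists were chosen with earlier results of these data known. Lists are described by counts and medians, with no set test. Deviations from the age means correlated between same-numbered aged and young mice at r of 0.069 for mouse 1 and −0.009 for mouse 3. With 2 young libraries their deviations mirror each other, so this check cannot decide whether the numbers pair the mice. The main fit did not pair them. Alternatives covered scaling, pseudocount, filter, model, transcripts per gene and each library left out. Results for some genes are not reported here.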

Additional observations from a re-analysis of the deposited data

Results flagged for a closer look

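The lung library of young mouse 2, which entered no comparison, held transcripts of hepatocytes far above the other lungs. Alb, the albumin gene, stood at 32238 units there, against 10.7 to 23.96 units in aged lungs and 12.1 to 22.9 units in the young lungs compared. Apoa1, the main protein of high-density lipoprotein, stood at 8740 units, against 7.99 to 12.5 units in aged lungs and 2.64 to 5.66 units in the young lungs compared. Mup3, a major urinary protein gene of liver, stood at 1265 units, against 0 to 0.648 units in aged lungs and 0.808 to 0.881 units in the young lungs compared. Beside them Sftpc made up 1.11% and Scgb1a1 3.05% of this library, against 2.71% to 3.44% and 9.82% to 10.9% in aged lungs and 3.62% to 3.93% and 10.8% to 11.3% in the young lungs compared.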

How the results depend on the processing

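The lung count of 38 genes rests on limma's mean-variance trend and on few libraries. It was 42 (28 higher, 14 lower) with median-ratio size factors, 39 with a pseudocount 4 times as large, 27 with the smallest value as pseudocount, 28 after quantile normalization and 38 with voom, where the split was 21 higher and 17 lower against 28 and 10 in the main result. It was 1 without the trend, where 0 of the 38 were called, 3 in a fit of all tissues, where 1 of the 38 was called, 2 with no filter, 19 when transcripts were summed and 3 with young replicate 2 added; leaving out 1 library gave 4 to 93. With mouse number as a replicate block it was 24 (15 of them among the 38). For the contrast with the other tissues the count of 0 became 17 with no filter, 19 with the larger pseudocount, 5 with young mouse 2 and 1 without inguinal lymph nodes; it was 0 with voom, with no mouse term and without liver (an alternative chosen after seeing the data), and 0 to 1 with 1 lung library left out. Jchain was called under 14 of 16 alternatives, all but the fit without the trend and that of all tissues, and Cyp2a5 under 13, failing also with young replicate 2. The causes were not tested. Adding young replicate 2, with its liver transcripts, turned the log2 difference of Cfb to −0.055, Pigr to −0.267, Apoa1 to −2.44, Marco to 0.162, S100a9 to 0.295, Scgb1a1 to 0.375, Sftpb to 0.088 and Sftpc to 0.139. Among genes near 0, the replicate block turned Isg15 to −0.112 and S100a9 to 0.126, and voom turned Alb to 0.001 and S100a9 to 0.015. With 1 library left out, the sign also turned within −0.536 to 0.337 for Alb, −0.182 to 0.422 for Isg15, −0.298 to 0.220 for Marco, −0.035 to 0.155 for Pecam1, −0.469 to 0.191 for S100a9 and −0.126 to 0.265 for Scgb3a2, none of them called in the main result.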
